A study of Homo sapiens with 6 samples.

Results

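The KAT6A complex and its reader TRIM24 were examined as 10 genes taken by name from the 61806 genes of the count table: the acetyltransferases KAT6A, KAT6B and KAT7, the scaffolds BRPF1, BRD1 and BRPF3, the smaller subunits ING4, ING5 and MEAF6, and TRIM24. The series holds 6 RNA-seq libraries of MDA-MB-231, a human triple-negative breast cancer line that grows as mesenchymal-like cells. The control line carried a non-targeting short hairpin RNA (shNC) and the 2 knockdown lines carried hairpins against HMGA2 (shHMGA2-1 and shHMGA2-2), with 2 libraries per line and no other treatment or time point named. HMGA2 is an AT-hook chromatin protein, and the study asked which genes depend on it in these metastatic cells and how it acts with KAT6A. The stable lines were selected from single clones, so an effect of a hairpin and a difference between clones cannot be told apart. The controls' library names read WT where their titles read shNC, and those of shHMGA2-1 carry SH2, so groups here follow the titles. Whether the libraries of a line came from separate cultures is not stated, so p-values measure only the spread between these libraries.

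KAT6A (MOZ), KAT6B (MORF) and KAT7 (HBO1) are MYST-family enzymes that place acetyl groups on the tail of histone H3. A BRPF scaffold (BRPF1, BRD1, also called BRPF2, or BRPF3) holds the enzyme together with an ING protein, whose PHD finger reads methylated lysine 4 of histone H3, and with MEAF6. TRIM24 reads histone H3 through a PHD finger and a bromodomain, and it has been described as a reader of the H3 lysine 23 acetylation made by KAT6A, with the PI3K catalytic gene PIK3CA among the genes it turns on. The table's own gene ontology column lists 8 of the 10 genes under the MOZ/MORF histone acetyltransferase complex, and KAT7 and TRIM24 are the ones it leaves out.

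Each library held 16461178 to 17167293 counted reads, and the pair of libraries of every line varied beyond counting error (chi-square over its degrees of freedom 2.03 for shNC, 6.49 for shHMGA2-1, 3.02 for shHMGA2-2). HMGA2 itself had 2126 and 2161 counts in shNC, then 858 and 989 in shHMGA2-1, then 435 and 482 in shHMGA2-2. Against shNC the log2 fold change of HMGA2 was -1.29 ± 0.087 (SE) in shHMGA2-1 (edgeR adjusted p = 2.17e-11) and -2.31 ± 0.093 in shHMGA2-2 (edgeR adjusted p = 2.11e-16), so the labels and the targeted gene point the same way. VIM, a mesenchymal filament gene, was between 35046 and 38106 counts, and CD44 between 11002 and 15764. ESR1 reached at most 12 counts, CDH1 at most 4 and PGR at most 2, while the epithelial genes KRT18 (1485 to 1947) and EPCAM (127 to 302) and the receptor gene ERBB2 (1126 to 1909) were expressed. All 10 blood cell markers stayed at 16 counts or fewer, with CD3D, CD3E, MS4A1 and HBB at 0 in every library. Of 6 fibroblast and endothelial markers DCN and LUM were at 0 as well, and the highest count of the others was 70.

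All 10 genes were expressed and passed the filter on low counts. Levels between genes are compared as FPKM, the authors' counts per kilobase of exonic gene size and scaled to the library total. In shNC the scaffold BRPF3 stood first at 14.3 ± 0.064 FPKM (SD, n = 2). MEAF6 followed at 6.52 ± 0.66 and KAT7 at 6.29 ± 0.11, and their libraries overlapped (6.05 to 6.99 against 6.21 to 6.37). BRD1 was at 5.48 ± 0.27 and BRPF1 at 4.71 ± 0.021 FPKM. TRIM24 at 4.39 ± 0.23 and KAT6A at 4.24 ± 0.021 FPKM could not be separated, since TRIM24's libraries ran from 4.22 to 4.55 and KAT6A's from 4.22 to 4.25. ING4 and ING5 also overlapped, at 3.20 ± 0.18 and 3.20 ± 0.092 FPKM, and KAT6B was lowest at 1.25 ± 0.092. Exonic size adds up every annotated exon of a gene. Per kilobase of the longest protein-coding transcript, KAT6A moved from place 7 to place 3, MEAF6 to place 1 and TRIM24 to place 9, so the order depends on the length used.

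Against shNC, 4 of the 10 genes were higher in shHMGA2-1 (KAT6B, BRD1, BRPF3 and ING4), 2 were lower (KAT6A and MEAF6) and 4 did not pass the test, an edgeR quasi-likelihood fit with p-values adjusted over the 16110 genes tested. Of all genes tested, 15.8% were higher and 17.6% lower in that comparison. In shHMGA2-2, 5 genes were higher (KAT7, BRD1, ING4, MEAF6 and TRIM24), 2 were lower (KAT6A and KAT6B) and 3 did not pass, beside 29.5% higher and 29.2% lower over all genes. The shares of the 10 genes called were thus above those of all genes on the higher side and near or below them on the lower side. That difference rests on 10 genes and was not tested. No gene of the 10 changed by 2-fold in either line, while 8.49% of all genes in shHMGA2-1 and 21.3% in shHMGA2-2 were called with at least a 2-fold change. At an unadjusted p under 0.05, and with DESeq2 or limma, the number of the 10 at 2-fold was also 0. By edgeR their largest absolute log2 fold change was 0.732 in shHMGA2-1 and 0.707 in shHMGA2-2. Both are under 2-fold, so the p threshold could not change that number. The median absolute log2 fold change of the 10 genes was 0.26 in shHMGA2-1, equal to 0.26 over all genes, and 0.30 in shHMGA2-2 against 0.47 over all genes. Both comparisons use the same 2 shNC libraries. Without either shNC library in turn, fewer of the 10 were called in shHMGA2-1 and also in shHMGA2-2. Each such fit keeps 1 control library. Leaving out a library also changed the number called over all genes, with ranges given under the processing below. With upper quartile scaling the calls over all genes in shHMGA2-1 were 3253 higher and 2278 lower, in place of 2545 and 2843, and the median of all genes in shHMGA2-2 moved up by 0.12 on the log2 scale. All 13 calls made for the 10 genes kept their direction under that scaling. Its median shifts of 0.064 and 0.12 were smaller than the smallest called change of 0.24, so a change of direction could hardly occur. KAT6B's call in shHMGA2-2 was lost under it.

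**Figure D1:**
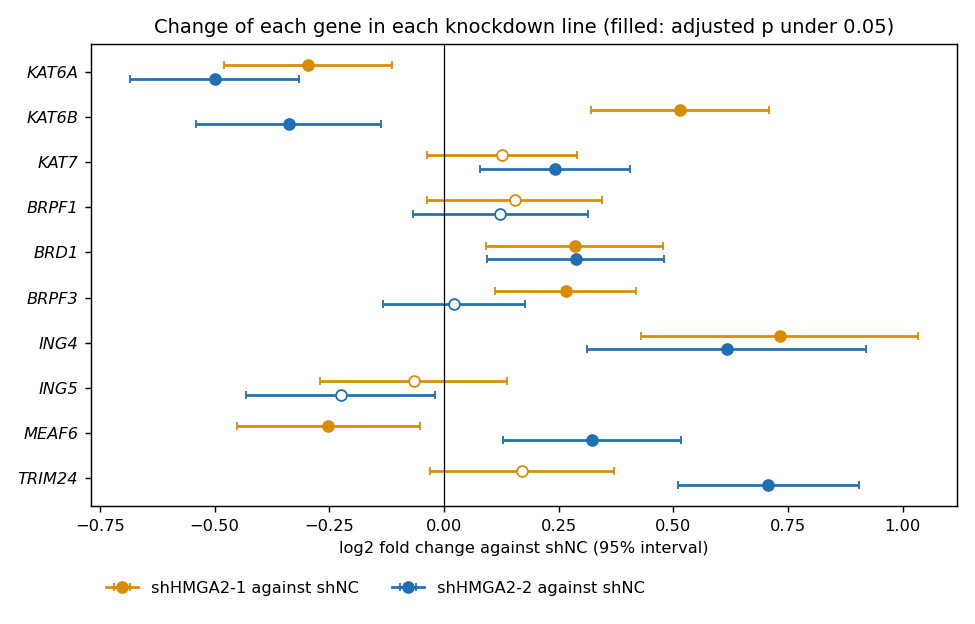
Log2 fold change against shNC (x axis) with its 95% interval for each gene in shHMGA2-1 (orange) and shHMGA2-2 (blue), filled where the edgeR adjusted p was under 0.05. KAT6A lies below 0 and BRD1 and ING4 above 0 in both lines, while KAT6B and MEAF6 fall on opposite sides.

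KAT6A, the catalytic subunit that names the complex, was lower in both knockdown lines. Its level was 107.1 and 106.5 CPM in shNC, then 80.1 and 93.7 in shHMGA2-1, then 82.0 and 69.1 in shHMGA2-2. Both shNC libraries stood above all 4 knockdown libraries, and the knockdown lines overlapped each other. The fall was 18.6% in shHMGA2-1 (log2 fold change -0.30 ± 0.088, edgeR adjusted p = 0.0113) and 29.3% in shHMGA2-2 (-0.50 ± 0.089, edgeR adjusted p = 3.62e-05). In shHMGA2-1 the call was lost with limma on the FPKM values (adjusted p = 0.17), without either shNC library (0.0982 and 0.0944) and without the first shHMGA2-1 library (0.0757). The call in shHMGA2-2 held in all 13 alternatives run, among which a 2-fold minimum is not counted. A direct comparison of shHMGA2-2 with shHMGA2-1 gave -0.20 for KAT6A, with a 95% interval from -0.39 to -0.02 (edgeR adjusted p = 0.063). It passed without the low-count filter (adjusted p = 0.0484), the first shHMGA2-1 library (0.00179) or the first shHMGA2-2 library (0.028).

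KAT6B, the paralog of KAT6A, moved in opposite directions in the 2 lines. It had 649 and 723 counts in shNC, then 984 and 1084 in shHMGA2-1, then 556 and 591 in shHMGA2-2. The 3 lines did not overlap in CPM. KAT6B was 42.8% higher in shHMGA2-1 (log2 fold change 0.51 ± 0.094, edgeR adjusted p = 0.000137) and 20.9% lower in shHMGA2-2 (-0.34 ± 0.098, edgeR adjusted p = 0.00471). The lines differed from each other by -0.85 ± 0.096 (edgeR adjusted p = 6.29e-08), which was the largest difference between the knockdown lines among the 10 genes. The fall in shHMGA2-2 was lost with upper quartile scaling (adjusted p = 0.0512), with limma (0.323), without the second shNC library (0.112) and without the first shHMGA2-2 library (0.0534).

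KAT7, which pairs with BRPF scaffolds as well as with JADE scaffolds, had 1233 and 1264 counts in shNC, then 1491 and 1387 in shHMGA2-1, then 1604 and 1517 in shHMGA2-2. It was 18.3% higher in shHMGA2-2 (log2 fold change 0.24 ± 0.079, edgeR adjusted p = 0.0109), a call lost without either shNC library (0.123 and 0.0639) or the first shHMGA2-2 library (0.149). In shHMGA2-1 its value was 0.13 ± 0.079 (edgeR adjusted p = 0.241). FAM117A, which overlaps KAT7 on the other strand, reached 105 counts, and whether strand was used in counting is not given in the sources used here. Other genes overlapping the 10 had at most 13 counts.

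By FPKM, KAT6A made up 36.5% and 35.5% of the summed level of the 3 acetyltransferase genes in the shNC libraries. That share was 26.7% and 30.2% in shHMGA2-1 and 27.1% and 25.2% in shHMGA2-2, so every knockdown library lay below both controls. KAT7's share was 53.4% and 53.5% in shNC, then 59.3% and 54.4% in shHMGA2-1, then 64.8% and 65.6% in shHMGA2-2. KAT6B's was 10.1% and 11.0%, then 14.0% and 15.3%, then 8.08% and 9.22%. The order depends on the length used: per base of the longest protein-coding transcript, KAT6A led in shNC with 47.8% and 46.2% before KAT7 with 32.5% and 32.4%. On that scale KAT6A's share was 35.5% and 38.6% in shHMGA2-1 and 39.2% and 36.3% in shHMGA2-2, again below both controls. These shares are parts of RNA levels and carry no test.

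**Figure D2:**
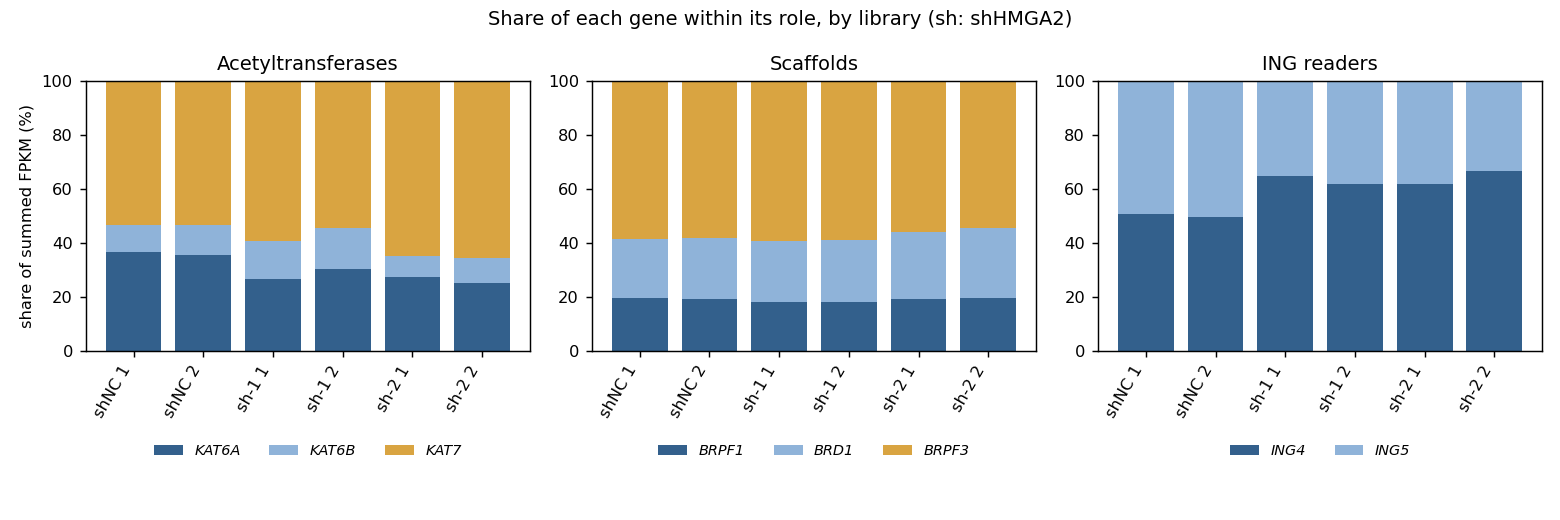
Share of summed FPKM (y axis, percent) held by each gene within its role in each library; each bar is 1 library and its segments add up to 100%. KAT6A's segment is 35.5% or more in both shNC libraries and at most 30.2% in the knockdown libraries, and ING4's rises from about equal with ING5 in shNC to at least 61.7%.

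Among the scaffolds, BRD1 was higher by nearly the same amount in both lines. It had 558 and 598 counts in shNC, then 759 and 728 in shHMGA2-1, then 729 and 762 in shHMGA2-2, with both controls below all 4 knockdown libraries. Its log2 fold change was 0.28 ± 0.093 in shHMGA2-1 (edgeR adjusted p = 0.0203) and 0.29 ± 0.093 in shHMGA2-2 (edgeR adjusted p = 0.0105), and the lines differed by 0.00, with a 95% interval from -0.19 to 0.19. DESeq2 did not call it in either line (adjusted p = 0.0985 and 0.0623). The call was also lost in both lines without the first shNC library (0.224 and 0.149), in shHMGA2-1 without the second shNC library (0.0726) or the low-count filter (0.0578), and in shHMGA2-2 without its second library (0.0738).

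BRPF3, the most abundant scaffold by FPKM, rose in shHMGA2-1 and stayed near the control level in shHMGA2-2. Its counts were 1602 and 1612 in shNC, then 2124 and 1956 in shHMGA2-1, then 1748 and 1700 in shHMGA2-2. In shHMGA2-1 the log2 fold change was 0.27 ± 0.074 (edgeR adjusted p = 0.00725), a call lost without either shNC library (0.102 and 0.0831). In shHMGA2-2 it was 0.02, with a 95% interval from -0.13 to 0.18. The lines differed by -0.24 ± 0.074 (edgeR adjusted p = 0.00801), a call lost without the second shHMGA2-2 library (0.104).

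BRPF1, the scaffold best known as a partner of KAT6A, had 624 and 620 counts in shNC, then 762 and 700 in shHMGA2-1, then 707 and 725 in shHMGA2-2. Both knockdown lines lay above both controls in CPM, at 0.15 ± 0.092 in shHMGA2-1 (edgeR adjusted p = 0.216) and 0.12 ± 0.092 in shHMGA2-2 (edgeR adjusted p = 0.264), and neither passed the test. With upper quartile scaling and with limma the value in shHMGA2-2 passed (adjusted p = 0.0302 and 0.0381).

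ING4, a PHD-finger subunit, showed the largest rise of the 10 genes in shHMGA2-1 and a similar rise in shHMGA2-2. It was also the gene with the fewest reads. Its counts were 153 and 141 in shNC, then 285 and 231 in shHMGA2-1, then 219 and 258 in shHMGA2-2. Every knockdown library lay above both controls, and the knockdown lines overlapped. ING4 was 66.1% higher in shHMGA2-1 (log2 fold change 0.73 ± 0.15, edgeR adjusted p = 0.000357) and 53.3% higher in shHMGA2-2 (0.62 ± 0.15, edgeR adjusted p = 0.000907), and both calls held in all 13 alternatives run.

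ING5, the other PHD-finger subunit of these complexes, had 568 and 546 counts in shNC, then 583 and 541 in shHMGA2-1, then 515 and 492 in shHMGA2-2. The ING5 log2 fold change was -0.07 ± 0.098 in shHMGA2-1 (edgeR adjusted p = 0.657) and -0.23 ± 0.099 in shHMGA2-2 (edgeR adjusted p = 0.055), and neither passed. The latter passed without either shHMGA2-1 library (adjusted p = 0.0253 and 0.0251) and with only the 4 libraries compared (0.0252). ING4 therefore made up 50.5% and 49.5% of the summed ING4 and ING5 FPKM in shNC, then 64.9% and 61.8% in shHMGA2-1, then 61.7% and 66.5% in shHMGA2-2. In every knockdown library ING4 was the larger of the pair.

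MEAF6, a small subunit shared by several MYST complexes, fell in shHMGA2-1 and rose in shHMGA2-2. Its counts were 719 and 623 in shNC, then 609 and 581 in shHMGA2-1, then 866 and 909 in shHMGA2-2, and the 3 lines did not overlap. The fall was small (log2 fold change -0.25 ± 0.097, edgeR adjusted p = 0.0474) and lost its call in 11 of the 13 alternatives run, where the adjusted p reached 0.457. The rise in shHMGA2-2 was 0.32 ± 0.094 (edgeR adjusted p = 0.00498) and was lost without the second shNC library (0.149) or the second shHMGA2-2 library (0.0544). The lines differed by 0.57 ± 0.095 (edgeR adjusted p = 1.85e-05), and that call held in all 13 alternatives.

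TRIM24, the reader of the KAT6A mark, rose in shHMGA2-2. It had 666 and 719 counts in shNC, then 752 and 892 in shHMGA2-1, then 1189 and 1201 in shHMGA2-2. The shHMGA2-2 libraries stood above the other 4, and shHMGA2-1 overlapped shNC in CPM (43.4 and 52.6 against 41.0 and 44.3). TRIM24 was 63.2% higher in shHMGA2-2 (log2 fold change 0.71 ± 0.096, edgeR adjusted p = 7.87e-07), the largest change of the 10 in that line, and the call held in all 13 alternatives. In shHMGA2-1 the value was 0.17 ± 0.098 (edgeR adjusted p = 0.195), which became 0.30 with an adjusted p of 0.00854 without the first shHMGA2-1 library. The lines differed by 0.54 ± 0.094 (edgeR adjusted p = 3.98e-05).

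In the direct comparison of shHMGA2-2 with shHMGA2-1, 2 of the 10 genes were higher (MEAF6 and TRIM24), 2 were lower (KAT6B and BRPF3) and 6 did not pass, beside 24.5% higher and 25.7% lower over all genes tested. At 2-fold none of the 10 passed by edgeR, DESeq2 or limma, also at an unadjusted p, while 15.1% of all genes did by edgeR. The largest absolute log2 fold change of the 10 by edgeR was 0.853 there, so the p threshold could not change that. When the 4 knockdown libraries were taken as 1 group against shNC, edgeR called 0 of the 10. Over all genes that fit called 2.34% higher and 2.92% lower, and 3.09% with at least a 2-fold change. KAT6A, BRD1 and ING4 had an unadjusted p under 0.05 there, which makes 3 genes, and DESeq2 and limma each called 1, ING4. In that fit the difference between the knockdown lines counts as error, and the common coefficient of biological variation was 0.291 against 0.0583 with 3 groups. Its values were -0.39 ± 0.13 for KAT6A (edgeR adjusted p = 0.134), 0.67 ± 0.16 for ING4 (0.0678) and 0.46 ± 0.22 for TRIM24 (0.235). Upper quartile scaling gave 471 higher and 375 lower genes in place of 377 and 471, and without either shNC library 4 genes in all were called.

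The 10 genes lie on 10 chromosomes, in the build of the files (GRCh38.p13). TRIM24 (chr7:138460259-138589996, plus strand) rose in shHMGA2-2 together with the genes around it. Among its 20 nearest tested genes, 13 were higher and 3 lower in shHMGA2-2, with a median log2 fold change of 0.67 beside TRIM24's 0.71. Within 20 Mb on each side 102 of 197 tested genes were higher, with a median of 0.40, and over the whole chromosome the median was 0.24. In shHMGA2-1 the 20 nearest genes had a median of -0.09.

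MEAF6 (chr1:37489993-37514766, minus strand) showed the same kind of surroundings, with 16 of its 20 nearest tested genes higher and 1 lower in shHMGA2-2 and a median of 0.82, above MEAF6's own 0.32. Within 20 Mb on each side 273 of 407 genes (67.1%) were higher, against 29.5% over all genes, while the whole chromosome had a median of 0.04. Around KAT6B (chr10:74824927-75032624, plus strand) 11 of the 20 nearest genes were lower in shHMGA2-2, with a median of -0.32 beside KAT6B's -0.34, and over the whole chromosome 335 of 660 tested genes were lower. KAT6B's rise in shHMGA2-1 (0.51) stood above its neighbours' median of 0.09.

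KAT6A (chr8:41929479-42051994, minus strand) and ING4 (chr12:6650301-6663142, minus strand) differed from the median of their nearest genes. The 20 genes nearest to KAT6A had a median of 0.13 in shHMGA2-1 and 0.00 in shHMGA2-2, beside KAT6A's -0.30 and -0.50. Farther out the genes of that chromosome were lower in shHMGA2-2, with 64 of 165 lower within 20 Mb on each side and 275 of 574 (47.9%) over the whole chromosome, where the median was -0.29. Those nearest to ING4 had a median of 0.04 and -0.07, beside ING4's 0.73 and 0.62. Measured as the difference from the neighbours' median, MEAF6 in shHMGA2-2 turned from 0.32 to -0.49, and TRIM24 between the knockdown lines from 0.54 to -0.24. KAT7's rise in shHMGA2-2 (0.24) was close to its neighbours' median of 0.25, and the difference of BRPF3 between the lines (-0.24) equalled that of its neighbours (-0.24). The 20 genes nearest to BRD1 had medians of -0.01 in shHMGA2-1 and -0.10 in shHMGA2-2. Within 2 Mb on each side of BRD1, 9 of 34 genes were higher and 0 lower in shHMGA2-1, with a median of 0.135. In shHMGA2-2, 10 were higher and 1 lower there, with a median of 0.35 beside BRD1's 0.29, and the whole chromosome's median was 0.19. The part of these regional shifts in the values of KAT6A, KAT6B, KAT7, BRD1, BRPF3, MEAF6 and TRIM24 was not tested.

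**Figure D3:**
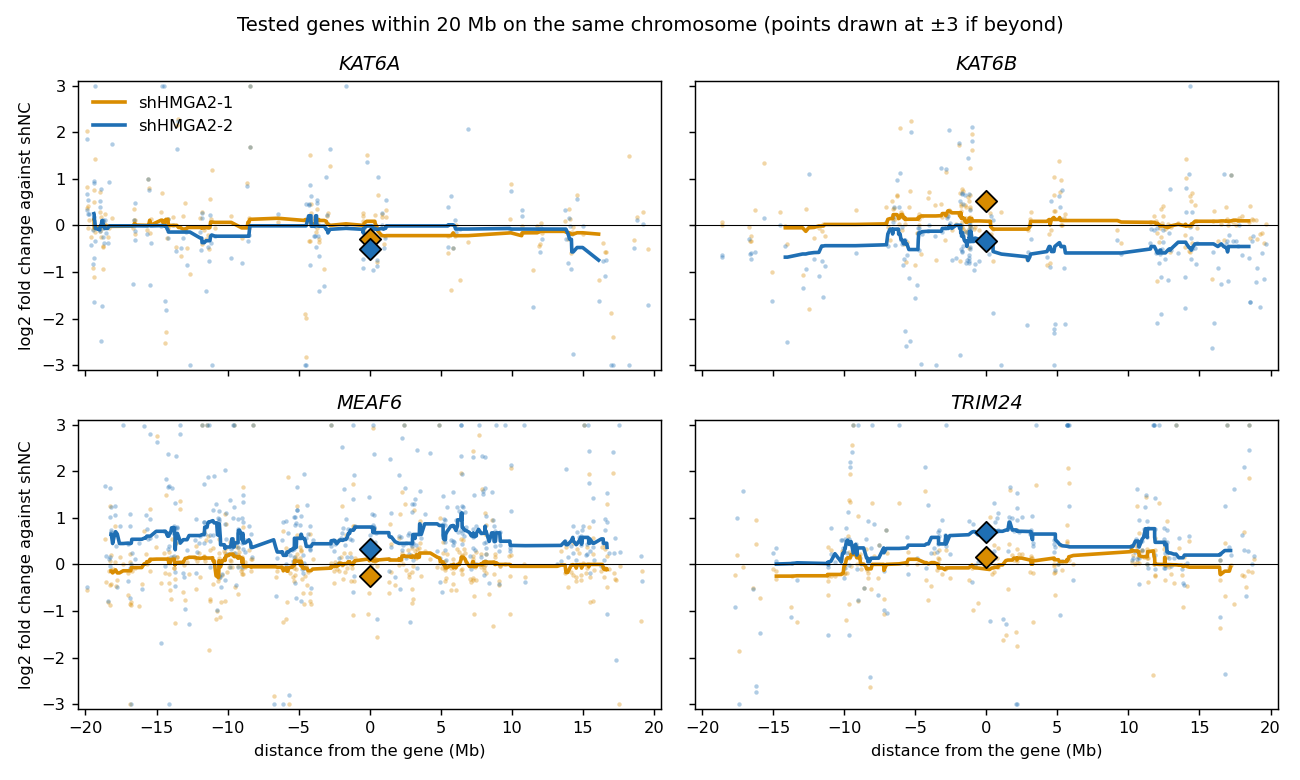
Log2 fold change against shNC (y axis) of tested genes by distance in Mb (x axis) from KAT6A, KAT6B, MEAF6 and TRIM24; lines are running medians over 21 genes and diamonds the genes themselves, orange for shHMGA2-1 and blue for shHMGA2-2. In shHMGA2-2 the running median stays above 0 around MEAF6 and TRIM24 and mostly below 0 around KAT6B, and near KAT6A it lies close to 0.

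Promoter sequence is shown for ING4, which rose in both lines, and for KAT6B and MEAF6, which moved in opposite directions, because HMGA2 binds the minor groove of AT-rich DNA. The RefSeq promoter table (GRCh38.p14) matched 8 of the 10 genes. Each line gives the 250 bases before the RefSeq start (the first listed where a gene has several), 5′ to 3′ on the gene's strand, with runs of at least 5 A or T in capitals, at chr12:6663120-6663369 (minus), chr10:74825005-74825254 (plus) and chr1:37514767-37515016 (minus). Starts differ between annotations, so KAT6B's window lies inside the gene as the deposited table bounds it, ING4's overlaps the edge of its gene, and MEAF6's adjoins its gene.
ING4: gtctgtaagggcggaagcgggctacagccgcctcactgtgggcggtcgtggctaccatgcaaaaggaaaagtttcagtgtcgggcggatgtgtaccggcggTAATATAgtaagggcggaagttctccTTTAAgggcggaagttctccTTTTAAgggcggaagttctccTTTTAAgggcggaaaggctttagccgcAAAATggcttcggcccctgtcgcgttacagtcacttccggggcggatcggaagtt
KAT6B: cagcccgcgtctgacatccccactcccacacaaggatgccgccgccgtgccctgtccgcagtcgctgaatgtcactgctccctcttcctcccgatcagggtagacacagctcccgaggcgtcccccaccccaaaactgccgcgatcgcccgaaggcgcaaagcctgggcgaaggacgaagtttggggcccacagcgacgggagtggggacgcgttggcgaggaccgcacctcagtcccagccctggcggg
MEAF6: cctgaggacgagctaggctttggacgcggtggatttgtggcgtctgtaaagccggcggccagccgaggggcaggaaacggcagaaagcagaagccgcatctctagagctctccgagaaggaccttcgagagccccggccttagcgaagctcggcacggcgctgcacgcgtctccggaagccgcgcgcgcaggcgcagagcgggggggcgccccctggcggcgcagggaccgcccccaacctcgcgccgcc
ING4's window held 5 such runs and was 44.4% A or T, KAT6B's held 0 at 32% and MEAF6's 0 at 29.2%. Of the other matched genes KAT7 had 3 runs, ING5 had 2, BRPF3 had 1, and BRPF1 and BRD1 had 0. Over the 27305 promoters of the table the median was 42% A or T, 74.6% held at least 1 run and 27.2% held 5 or more, and 54.7% were less AT-rich than ING4's window. A repeat in ING4's window carries the letters CGGAAG, the core recognised by ETS-family factors, which occur 6 times counting both strands. Among those promoters 16.8% of promoters held it at least 1 time and 0.168% held it 4 times or more. That search was chosen after the sequence was read, and a match describes letters only.

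The genes whose profile over the 6 libraries was most like KAT6A's, by the root mean square difference of mean-centred log2 CPM among 9511 genes, were PIK3R1 (0.0237), BAZ1A (0.0334) and RAB2A (0.0338). PIK3R1, a regulatory subunit of PI3K, was at 54.5 and 53.1 CPM in shNC, then 41.3 and 47.4 in shHMGA2-1, then 42.4 and 36.1 in shHMGA2-2. For TRIM24 they were BRAF (0.0348), ZNF200 (0.0386) and KIAA1586 (0.0425). BRAF, a kinase of the MAPK pathway, was at 38.6 and 40.8 CPM in shNC, then 42.9 and 49.3 in shHMGA2-1, then 66.1 and 63.3 in shHMGA2-2. It lies 2.30 Mb from TRIM24 on the same chromosome.

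PIK3CA, the PI3K catalytic gene tied to TRIM24 and KAT6A in the background given above, had 1678 and 1643 counts in shNC, then 1105 and 1272 in shHMGA2-1, then 705 and 672 in shHMGA2-2. It fell by 0.56 ± 0.086 on the log2 scale in shHMGA2-1 (edgeR adjusted p = 1.58e-05) and by 1.35 ± 0.090 in shHMGA2-2 (3.58e-12), and the 3 lines did not overlap. In shHMGA2-2 PIK3CA was thus lower while TRIM24 was higher and KAT6A lower. Of 11 tested PI3K subunit genes, 2 were higher and 3 lower in shHMGA2-1, and 1 was higher and 7 lower in shHMGA2-2. Over all genes 15.8% were higher and 17.6% lower in shHMGA2-1, and 29.5% and 29.2% in shHMGA2-2. The subunit genes had medians of -0.19 and -0.40, beside 0.01 and 0.03 over all genes. PIK3R3, a regulatory subunit, rose in both lines (0.95 ± 0.16 and 1.56 ± 0.16, edgeR adjusted p = 5.69e-05 and 5.55e-09). PIK3CD fell in both lines (-0.69 ± 0.14 and -0.77 ± 0.14, edgeR adjusted p = 0.000457 and 5.41e-05). PIK3C2B was higher in shHMGA2-1 (1.00 ± 0.27, edgeR adjusted p = 0.00634) and at 0.28 ± 0.29 in shHMGA2-2 (0.44). PIK3CG had 415 and 371 counts in shNC, then 348 and 334 in shHMGA2-1, then 1 and 0 in shHMGA2-2, a ratio of 765 with an exact binomial 95% interval from 136.9 to 30250 that covers counting error only.

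Other genes that the study's text sets beside KAT6A included the collagenase gene MMP1, at 155 and 165 counts in shNC, then 53 and 53 in shHMGA2-1, then 5 and 2 in shHMGA2-2, with log2 fold changes of -1.67 ± 0.21 and -5.54 ± 0.34 (edgeR adjusted p = 7.41e-07 and 7.2e-13). MMP2 and MMP9 had at most 2 and 1 counts in any library, under the 3 counts used as the floor, and were not tested. COP1, a ubiquitin ligase gene, was at 0.08 ± 0.093 in shHMGA2-1 (edgeR adjusted p = 0.57) and fell by 0.75 ± 0.097 in shHMGA2-2 (4.42e-07). CTNNB1, which encodes beta-catenin, was at 0.07 ± 0.060 (0.4) and fell by 0.25 ± 0.060 (0.00111).

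Of 13 other MYST enzymes and scaffolds, 4 were higher and 0 lower in shHMGA2-1, and 3 were higher and 3 lower in shHMGA2-2. Over all genes 15.8% were higher and 17.6% lower in shHMGA2-1, and 29.5% and 29.2% in shHMGA2-2. The list's median absolute log2 fold changes were 0.07 and 0.17, beside 0.26 and 0.47 over all genes. Those higher in shHMGA2-1 included JADE3 (0.37 ± 0.12, edgeR adjusted p = 0.0174), KAT8 (0.37 ± 0.12, 0.0184) and EPC2 (0.29 ± 0.088, 0.0131). In shHMGA2-2 EPC1, a scaffold of the KAT5 complex, fell by 1.24 ± 0.10 (edgeR adjusted p = 2.07e-10) while JADE3 (0.82 ± 0.12, 1.63e-06) and KAT5 (0.81 ± 0.10, 1.85e-07) rose. Of the other ING genes, 0 of 3 passed in shHMGA2-1 and ING3 rose in shHMGA2-2 (0.99 ± 0.13, edgeR adjusted p = 4.06e-07). ING3 lies 17.6 Mb from TRIM24. Among TRIM24's relatives TRIM66 rose in both lines (0.96 ± 0.14 and 1.24 ± 0.13, edgeR adjusted p = 5.37e-06 and 2.19e-08), and TRIM33 fell in shHMGA2-2 (-0.61 ± 0.084, 9.83e-07).

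A change in every cell and a change in the share of cells that express a gene cannot be told apart in bulk libraries, and RNA levels say nothing of how much assembled complex the cells held.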

How the data were processed

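Captured mRNA of 6 libraries was sequenced, 2 per line. Per the labels' processing notes, the authors aligned reads with HISAT2 2.2.1 to GRCh38.p13 and counted them with HTSeq 0.6.1. The deposited table holds whole-number counts per gene, and FPKM that the authors made from those counts, exonic gene size and library total. Recomputed FPKM values matched within 0.01 for 100% of values. The annotation release, strand setting and handling of reads with several matches are not given in the sources used here. The number of per-sample columns left unmapped was 0.

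Counts were fitted with edgeR 4.0.16 (TMM, filterByExpr, quasi-likelihood test) in a model of 3 lines and, apart, with the 4 knockdown libraries as 1 group, and p-values were adjusted by Benjamini-Hochberg over 16110 genes. A gene was called at an adjusted p under 0.05. SE is the log2 fold change divided by the square root of F. TMM factors ran from 0.958 to 1.05. Alternatives were DESeq2 1.42.0, other scalings, no filter, limma 3.58.1 on log2(FPKM + 1) for genes averaging 1 FPKM or more (a scale that understates changes of low genes), a replicate block and leaving out each library. The scripts were tested on simulated counts. At these depths 3 counts, the floor, equal 0.175 to 0.182 CPM, before scaling and for counting error only.

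The 10 genes and the lists were chosen with earlier results of these data known. Values are given for all 10, for HMGA2 and the genes the study names beside KAT6A, for up to 3 called genes per list and line with the largest absolute log2 fold change, and for the 3 genes (mean CPM at least 10) most like KAT6A and TRIM24. A gene that this rule selects is not reported here. CGGAAG, HDAC1, GATA3, FOXA1, EPCAM and the fold changes of EGFR, CD44 and ERBB2 were picked after their values were seen. Chromosome neighbours are the 10 nearest tested genes on each side, which for ING5, near a chromosome end, came to 13 in all.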

Additional observations from a re-analysis of the deposited data

Results flagged for a closer look

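For 4 of the 10 genes the log2 fold change against shNC differed between the hairpins by the edgeR test of the difference itself. In that test, taken as shHMGA2-2 minus shHMGA2-1, 24.5% of all genes tested were higher and 25.7% lower. The differences were -0.85 for KAT6B, -0.24 for BRPF3, 0.57 for MEAF6 and 0.54 for TRIM24. The tested genes nearest to them had median differences of -0.53, -0.24, 0.69 and 0.78 in the same order. The lines were selected from single clones, so hairpin and clone cannot be told apart.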

How the results depend on the processing

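Against 5388 genes called in shHMGA2-1 and 9464 in shHMGA2-2, limma on FPKM called 3550 in shHMGA2-1, and a 2-fold minimum left 1367, 3432 and, between the knockdown lines, 2432 of 8095. That minimum left 0 of the 10 genes in each. Leaving out each library gave 3283 to 5795 genes and 2 to 6 of the 10 in shHMGA2-1, 7703 to 10140 genes and 4 to 8 of the 10 in shHMGA2-2, and 6226 to 7970 genes and 3 to 5 of the 10 between the lines. With the 4 knockdown libraries as 1 group, 848 genes were called, against 1972 with DESeq2, 498 at 2-fold, 8015 as the mean of the hairpin contrasts and 4 to 822 without each library. Of the 10, it called 0, against 1 with DESeq2, 1 with limma and 5 as the mean of contrasts.

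Same-numbered deviations of the libraries correlated at -0.022, 0.00135 and -0.144. With 2 libraries per line, crossed numbers give the same values with the opposite sign. These correlations therefore cannot show whether libraries of different lines share a batch. With the replicate block 4840 genes and 5 of the 10 were called in shHMGA2-1, 9065 and 7 in shHMGA2-2, and 7609 and 4 between the lines, and for the single group 152 and 0. Crossing the numbers between the knockdown lines, chosen after seeing the data, called 8770 genes and 5 of the 10.

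Values that changed sign were as follows. BRPF3 in shHMGA2-2 was -0.00353 without the low-count filter and ranged from -0.0207 to 0.0556 without a library. Between the lines BRPF1 was 0.0195 with upper quartile scaling, 0.0208 with limma and -0.0758 to 0.0149 without a library, BRD1 was -0.00438 without the filter and -0.012 to 0.0165 without a library, and ING4 was -0.244 to 0.0277 without a library. In the single group KAT6B ranged from -0.0366 to 0.286 and MEAF6 from -0.0452 to 0.164 without a library. Less the median of the nearest tested genes, a step added after seeing the data, KAT7 became -0.136 in shHMGA2-1 and -0.0127 in shHMGA2-2, ING5 0.0786 in shHMGA2-2 and 0.0815 between the lines, MEAF6 -0.492 and -0.115, ING4 0.0015 and TRIM24 -0.239 between the lines. The cause was not tested. For the 10 genes, 456 alternative fold changes kept direction and call, 34 lost the call, 16 gained it and 14 changed sign. The neighbour step and the 2-fold minimum are not counted there. With 2 libraries per line, ING4 at 141 to 285 counts had the widest intervals of the 10 in the fit with 3 lines.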

Other observations

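Among 11 other histone acetyltransferase genes, 4 fell and 0 rose in shHMGA2-1, and 4 fell and 3 rose in shHMGA2-2. The list's median log2 fold changes were -0.05 and -0.02, beside 0.01 and 0.03 over all genes tested. For this list and those below, the shares called over all genes were 15.8% higher and 17.6% lower in shHMGA2-1. In shHMGA2-2 the shares were 29.5% and 29.2%. CREBBP, which encodes the coactivator CBP, had 1671 and 1755 counts in shNC, then 881 and 875 in shHMGA2-1, then 813 and 826 in shHMGA2-2, a log2 fold change of -1.04 ± 0.081 and -1.14 ± 0.081 (edgeR adjusted p = 2.7e-10 and 1.19e-11). This fall was larger than any change among the KAT6A complex genes and was also called with the knockdown libraries as 1 group (-1.09 ± 0.086, edgeR adjusted p = 0.00392). KAT2B fell by 0.36 ± 0.095 and by 1.27 ± 0.10 (0.00431 and 9.51e-11), NCOA3 fell by 0.36 ± 0.088 in shHMGA2-1 (0.0029), and EP300, the paralog of CREBBP, fell by 0.34 ± 0.087 in shHMGA2-1 (0.00409) and rose by 0.57 ± 0.084 in shHMGA2-2 (2.54e-06).

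Among 16 acetyl-lysine and acyl-lysine readers, 3 rose and 3 fell in shHMGA2-1, and 7 rose and 6 fell in shHMGA2-2, with medians of -0.01 and 0.15. BRD9 rose in both lines (0.41 ± 0.083 and 0.97 ± 0.082, edgeR adjusted p = 0.000383 and 2.72e-10), BRD8 did as well (0.43 ± 0.069 and 0.37 ± 0.069, 2.63e-05 and 6.94e-05) and DPF3 fell by 1.00 ± 0.16 in shHMGA2-2 (6.68e-06). Of 18 deacetylases, 3 rose and 2 fell in shHMGA2-1, and 8 rose and 3 fell in shHMGA2-2, with medians of 0.05 and 0.17. HDAC9 had 722 and 795 counts in shNC, then 291 and 369 in shHMGA2-1, then 973 and 931 in shHMGA2-2, so it fell in the former (-1.28 ± 0.11, edgeR adjusted p = 2.62e-09) and rose in the latter (0.25 ± 0.10, 0.042). HDAC11 rose in both lines (1.03 ± 0.19 and 1.62 ± 0.18, 0.000153 and 3.8e-08) and so did HDAC6 (0.45 ± 0.096 and 0.92 ± 0.095, 0.000815 and 1.05e-08). In shHMGA2-2 HDAC5 fell (-1.30 ± 0.17, 4.41e-07), and SIRT4 rose (2.10 ± 0.73, 0.0165) from 1 and 5 counts to 18 and 10. HDAC1, 5.19 Mb from MEAF6, was at 0.90 ± 0.067 in shHMGA2-2 (2.91e-11).

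Of 10 menin-MLL genes, 2 rose and 4 fell in shHMGA2-1 and 2 rose and 2 fell in shHMGA2-2, with medians of 0.04 and 0.02. KMT2D (-0.66 ± 0.075 and -0.78 ± 0.075, edgeR adjusted p = 1.67e-07 and 3.29e-09) and RBBP5 (-0.24 ± 0.086 and -0.45 ± 0.087, 0.0347 and 8.71e-05) fell in both. DPY30 rose in shHMGA2-1 (0.29 ± 0.090, 0.0145) and MEN1 in shHMGA2-2 (0.38 ± 0.086, 0.000487).

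Of the 11 identity genes 8 were tested, and 3 were higher and 3 lower in each line. EGFR fell in both lines (-0.75 ± 0.065 and -1.54 ± 0.067, edgeR adjusted p = 2.06e-09 and 8.12e-16). CD44 (0.25 ± 0.058 and 0.41 ± 0.058, 0.00161 and 1.76e-06) and ERBB2 (0.46 ± 0.095 and 0.45 ± 0.095, 0.000479 and 0.000282) rose in both. Values of 3 more follow, and the genes named here were chosen after their values were seen. GATA3, a luminal factor gene, was at 262 and 318 counts in shHMGA2-2 and at 38 to 58 in the other libraries. FOXA1, another luminal factor gene, was lower in both lines (-0.70 ± 0.23 and -5.11 ± 0.40, edgeR adjusted p = 0.0205 and 8.45e-11), with 110 and 94 counts in shNC, then 64 and 68 in shHMGA2-1, then 5 and 1 in shHMGA2-2. The epithelial adhesion gene EPCAM was higher in shHMGA2-1 (1.00 ± 0.14, edgeR adjusted p = 6.49e-06) and at -0.10 ± 0.16 in shHMGA2-2 (0.625).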
